A study of Drosera capensis with 12 samples.

Results

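Among the transcripts that rose in leaf traps of the Cape sundew after glutathione, 184 had a mean close to the resting level in traps closed on living fruit flies. They were picked from 397048 features of the assembled transcriptome, of which 227782 were above 0 in at least 1 library. The choice rested on the measured values of all 12 libraries. A transcript was kept when its mean in each set of mock traps was under 300 TPM (a relative level: each value over its library sum, times 1000000), its mean in glutathione-closed traps was at least 10 TPM, and its lowest glutathione-closed library lay above its highest glutathione mock library. Its change after glutathione had to be at least 2.5, and its change after flies between -0.5 and 0.5. A change here is the log2 ratio of the group means in TPM, after adding 1 to each mean, less the median change of the 30755 features above 0 in all 12 libraries. These changes chose the transcripts, so they are given as a description with no test.

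Drosera capensis is a carnivorous plant whose leaves carry sticky tentacles and fold around prey. Glutathione (GSH) is a thiol tripeptide that plants use as a redox buffer, as a store of reduced sulphur and, through glutathione S-transferases, to conjugate toxic compounds. In the animal Hydra, glutathione leaking from wounded prey is a known trigger of the feeding response. In sundews and the Venus flytrap, live prey raises jasmonates, the hormones that switch on digestive enzymes.

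RNA was sequenced from whole leaf traps in 4 groups of 3 libraries. GSH-closed traps had received GSH at 100 mM on the petiole, and their controls, the GSH mock, had received no small molecule. Fly-closed traps had been given living fruit flies, and their controls, the fly mock, were unstimulated traps of that experiment. The agent given in a further label of the fly-closed samples is GSH, which contradicts their titles; groups follow the titles. The sample codes of the fly mock carry a tag in minutes that reads as a start time, and those of the fly-closed traps carry no time. Whether both were harvested at the same time is not stated. The labels give no plant age, other harvest time or clone, and not whether each sample is its own plant. The p-values therefore measure only the spread between these libraries, which may be technical. Because whole traps were sequenced, more RNA of a transcript per cell and more cells that carry it cannot be told apart.

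No gene names come with the features, so no trap markers could be checked, no pathway can be counted, and only 2 of the transcripts are printed by their assembly ID. The others are referred to by their rank from 1 to 184 in mean GSH-closed TPM. Library values summed to between 17708252 and 20453078, a total of rescaled values and not of reads, so the depth behind each transcript is unknown.

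The GSH conditions alone were met by 988 features, and the 184 are 18.6% of them. The change after flies was above 0.5 in 788 of the 988 (79.8%) and below -0.5 in 16. The 184 form the low end of a continuous range and not a separate cluster: 67 of the 988 had a change after flies from 0 to 0.25, 81 from 0.25 to 0.5, 95 from 0.5 to 0.75 and 95 from 0.75 to 1. Just inside the upper bound were transcripts with changes of 0.50 (0.498) and 0.49 after flies, and just outside were features with 0.502 and 0.51. Just inside the lower bound the changes were -0.50 and -0.47, and just outside -0.55 and -0.56. At the bound on GSH the nearest values were 2.501 and 2.504 inside and 2.494 and 2.492 outside.

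**Figure D1:**
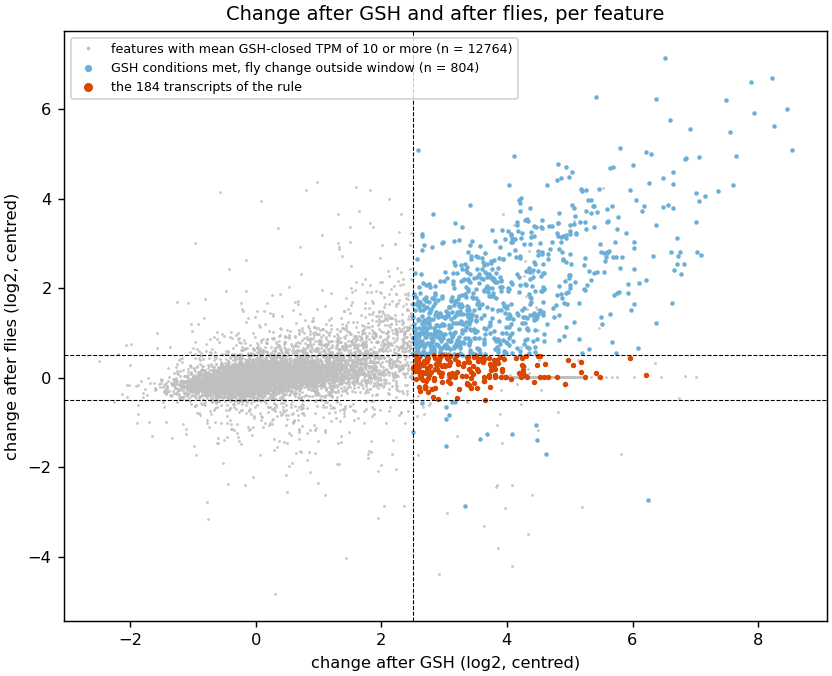
Change after flies against change after GSH (both log2 and centred) for the 12764 features with a mean of at least 10 TPM in GSH-closed traps. The 184 transcripts fill the window between the dashed lines to the right of 2.5, while most of the 804 other features that met the GSH conditions lie above it.

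The requirement that every GSH-closed library exceed every GSH mock library did much of the selection. Without it, 862 features would have met the rule, and of the 678 it left out, 655 were listed at 0 in 2 of the 3 GSH-closed libraries.

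The most abundant of the 184 was TRINITY_DN3468_c0_g1. Its level was 108, 103 and 120.2 TPM in GSH-mock traps and 876, 900.5 and 892 TPM in GSH-closed traps. It stood at 86.8, 87.9 and 76.0 TPM in fly-mock traps, against 80.2, 88.0 and 85.8 TPM in fly-closed traps. The 3 GSH-closed libraries were close together and far above the other 9, and the fly-closed libraries lay within the range of their mock in all but 1 library, which was above it by less than 1 TPM. Limma, a linear model fitted across all tested features, used log2(TPM + 1) after scaling between libraries. By limma the change of this transcript was 3.44 ± 0.05 (SE) after GSH and 0.03 ± 0.05 (SE) after flies. The 95% interval was 0.12 to either side of each. Without scaling between libraries its limma change after GSH was 3.00.

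TRINITY_DN4753_c1_g1, rank 24, had the largest change after GSH, 5.41, among transcripts above 0 in all 12 libraries other than the one just described. Its level was 4.19, 3.33 and 3.44 TPM in GSH-mock traps and 159, 152 and 156 TPM in GSH-closed traps. In the fly experiment it was 6.84, 6.21 and 7.47 TPM in mock traps and 6.73, 8.73 and 6.47 TPM in fly-closed traps, groups that overlap. Its limma change was 5.48 ± 0.11 (SE) after GSH and 0.08 ± 0.11 (SE) after flies. Its resting level was lower in the GSH mock than in the fly mock, by limma a log2 difference of -0.86 ± 0.11 (SE, adjusted p = 0.00084). The transcript was picked for its change after GSH, which favours a low GSH mock, so this p-value is given as a description.

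The GSH-closed libraries of the next transcripts by level also stood apart from all others, with a wider spread in some. Rank 2 was at 34.6, 134.5 and 74.0 TPM in GSH-mock traps, against 873, 529 and 737 TPM in GSH-closed traps. It was at 84.5, 82.3 and 84.5 TPM in fly-mock traps, against 86.0, 84.6 and 91.6 TPM in fly-closed traps. Its GSH-closed libraries spread the most among the 10 most abundant, and it had the highest level of all 184 in the fly mock.

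Rank 3 went from 117, 149 and 128 TPM to 681, 649 and 609.5 TPM with GSH, and from 42.2, 43.8 and 31.4 TPM to 32.9, 50.9 and 36.5 TPM with flies. Rank 4 went from 125, 125 and 135 TPM to 596, 713 and 602 TPM with GSH, and from 59.9, 61.1 and 61.5 TPM to 66.8, 62.3 and 65.7 TPM with flies. For rank 4 every fly-closed library was above every fly mock library, while for rank 3 the fly groups overlapped. Rank 5 went from 121, 93.8 and 117 TPM to 538, 528 and 506 TPM with GSH and from 51.1, 57.7 and 53.9 TPM to 63.9, 64.9 and 69.6 TPM with flies. In rank 5 the fly groups did not overlap either. Rank 10 went from 58.6, 68.9 and 55.1 TPM to 353, 364 and 418 TPM with GSH, and from 24.8, 26.9 and 24.7 TPM to 24.4, 26.3 and 27.0 TPM with flies. In all 4 the GSH mock stood well above the fly mock, with no overlap.

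**Figure D2:**
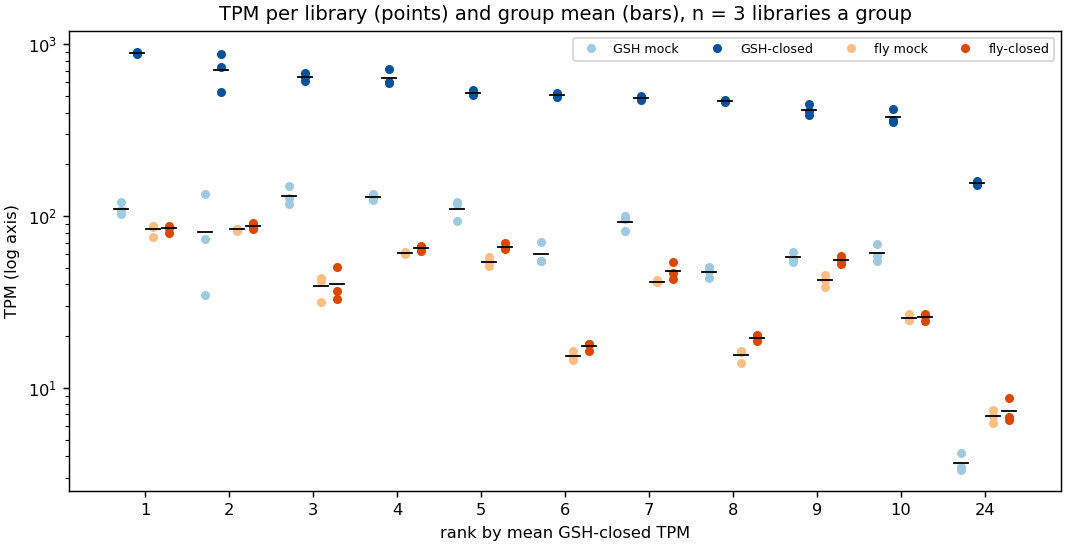
TPM on a log axis in every library (points) and group means (bars, n = 3 libraries) of the 10 most abundant of the 184 transcripts and of TRINITY_DN4753_c1_g1 at rank 24. The GSH-closed points stand alone at the top in each, from 353 TPM upward in the first 10, and in 8 of the first 10 the GSH mock tested higher than the fly mock.

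Over all 184, the median of the mean level was 3.44 TPM in GSH-mock traps, 33.8 TPM in GSH-closed traps, 2.64 TPM in fly-mock traps and 2.91 TPM in fly-closed traps. The change after GSH had a median of 3.21 and reached 6.22, with 73 transcripts from 2.5 to under 3, 80 from 3 to under 4, 23 from 4 to under 5 and 8 at 5 or more. The levels were uneven: 35 transcripts had a mean of at least 100 TPM in GSH-closed traps, 17 held 50% of the summed level, and the 10 most abundant held 37.9%.

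Summed over the 184, the level was 1918, 1934 and 2025 TPM in GSH-mock traps, against 14653, 15241 and 14956 TPM once GSH had closed them. In the fly experiment the sum was 1282, 1289 and 1229.9 TPM without flies, against 1346, 1512 and 1471 TPM with them. The summed level was 7.63 times as high in GSH-closed traps as in their mock and 1.14 times as high in fly-closed traps as in theirs. No fly-closed library fell within the range of the fly mock. These ratios are of TPM without centring or scaling. The median change that the rule subtracts was -0.34 after GSH and -0.02 after flies. Without the 10 most abundant, the summed level was 805 ± 19.9 TPM in fly-mock traps and 933 ± 69.7 TPM in fly-closed traps (SD, n = 3).

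**Figure D3:**
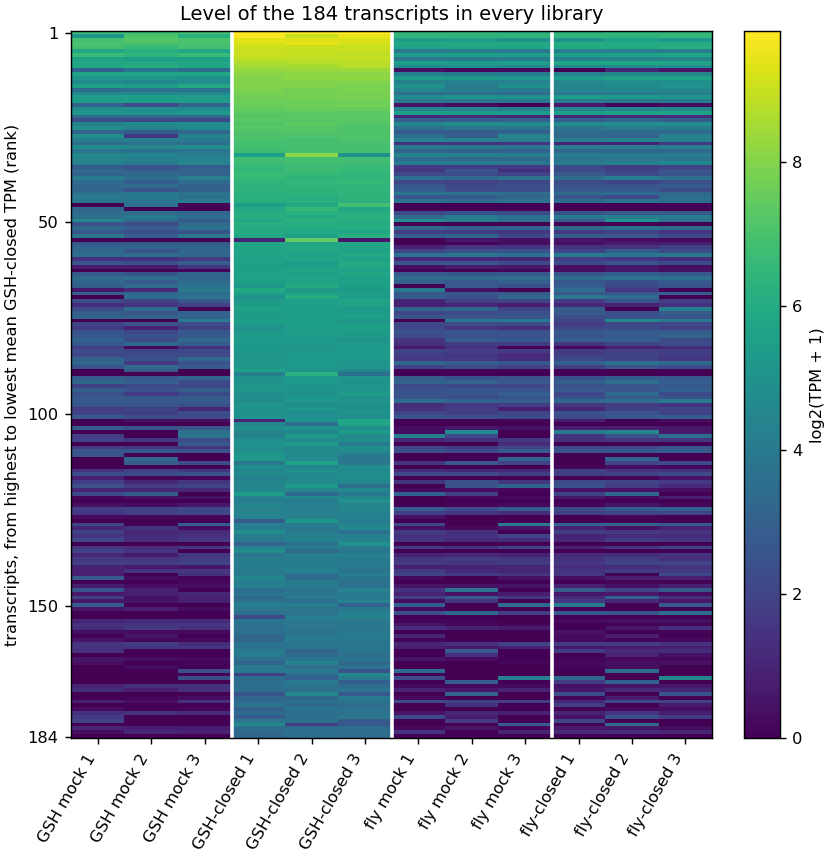
Level of the 184 transcripts, log2(TPM + 1), in each of the 12 libraries, ordered from the highest to the lowest mean in GSH-closed traps. The 3 GSH-closed columns are brighter than the other 9 for most transcripts (in 176 the lowest GSH-closed library lay above every fly-experiment library), and single bright cells mark transcripts carried by 1 GSH-closed library.

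The GSH-closed libraries differed little for most of the 184. The ratio of the highest to the lowest library had a median of 1.18, and the coefficient of variation had a median of 8.78%. For 31 transcripts the highest library was more than 2 times the lowest. The transcript with the largest change after GSH, rank 55, was listed at 0 in the GSH mock, against 0.94, 172 and 0.51 TPM in GSH-closed traps, so that its mean came from 1 library. Rank 33 went from 21.8, 22.5 and 16.5 TPM to 45.1, 273 and 31.7 TPM, with the same library high. Without GSH-closed replicate 2, the rule kept 166 of the 184.

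Other large changes were carried by all 3 libraries. Rank 63, with the second largest change, was listed at 0, 0 and 0.08 TPM in GSH-mock traps, against 48.4, 52.0 and 48.3 TPM in GSH-closed traps. In fly mock traps it stood at 0.07, 0 and 0.13 TPM, and in fly-closed traps at 0.32, 0.56 and 0.37 TPM, every fly-closed library above every fly mock library. Rank 11 was at 7.22 to 13.0 TPM in its 3 GSH mock libraries and reached 305, 323 and 321 TPM with GSH. In the fly experiment it was nearly undetected, at 0.34, 0.10 and 0.16 TPM in mock traps, against 0, 1.09 and 0.43 TPM in fly-closed traps.

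Ranks 20 and 62 had the same shape at lower levels. Rank 20 went from 6.96, 3.44 and 7.63 TPM to 187, 199 and 216 TPM with GSH, and rank 62 from 0.66, 0.67 and 2.00 TPM to 42.8, 46.5 and 59.8 TPM. Rank 114 was listed at 0 in all 6 mock libraries, against 26.2, 21.9 and 27.3 TPM in GSH-closed traps, with 0.13, 0.33 and 0.15 TPM in fly-closed traps. Ranks 90 and 103 were listed at 0 in all 9 libraries other than the GSH-closed ones, where they stood at 17.6, 74.7 and 11.0 TPM and at 21.9, 10.3 and 54.9 TPM, an uneven spread. Rank 102 was uneven too, at 1.00, 32.2 and 54.1 TPM. In GSH-mock traps all of these but rank 20 (mean 6.01 TPM) were at about 1 TPM or less on average, so their changes after GSH depend on the added 1 TPM. All were under 1 TPM on average in the fly mock, so their changes after flies depend on it too.

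How far the 184 were measured in the fly experiment varied. Of them, 119 were above 0 in all 6 fly-experiment libraries, 46 were under 1 TPM in all 6 and 13 were listed at 0 in all 6. Those 13 have the same change after flies, 0.02, which comes from the centring alone. At 5 TPM or more on average over the fly experiment stood 63 transcripts. The level in GSH-closed traps was higher where the transcript was seen with flies, with a median of 46.9 TPM for the 119 and 17.8 TPM for the 46. Their median levels in GSH-mock traps were 6.49 and 0.35 TPM, and the rule asks for a higher GSH-closed level where the mock is higher. The median change after GSH was 3.05 for the 119 and 3.88 for the 46, so nothing is read from the difference in level.

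The change after flies leaned upward within its window. It was above 0 in 148 of the 184 (80.4%), above 0.25 in 81 and below -0.25 in 6, with a median of 0.19. The 148 include the 13 listed at 0 in all 6 fly-experiment libraries, whose 0.02 comes from the centring alone. Of the 35070 tested features with a change after flies in the same window, 48.9% were above 0. Among the 63 with at least 5 TPM on average in the fly experiment, 54 were above 0. Every fly-closed library lay above every fly mock library in 39 of the 183 transcripts tested, against 10.9% of all 45503 tested features, and the reverse held in 6, against 8.24%. These counts come from the contrast that chose the transcripts and are given as a description.

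By limma with Benjamini-Hochberg adjustment over all tested features, 8 of the 183 passed 0.05 after flies, all higher, where 5.58% of all tested features passed in either direction and 4.75% as higher. The rule bounded this contrast, so the count is a description and nothing is read from its size beside those shares. The 8 had changes after flies from 0.22 to 0.49. Rank 14 stood at 19.7, 18.4 and 19.7 TPM in fly-mock traps, against 23.9, 26.8 and 28.4 TPM in fly-closed traps, and rank 34 at 9.84, 9.32 and 9.45 TPM and at 13.5, 13.9 and 13.6 TPM. Both were far higher after GSH, rank 14 at 249, 247 and 250.1 TPM and rank 34 at 112, 117 and 111 TPM. Without fly-closed replicate 1 the count was 5, and the share of all tested features called fell to 3.17%.

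The error of the change after flies bounded it closely for some and not for others. Among the 63 with at least 5 TPM on average in the fly experiment, the 95% interval of the limma change lay wholly within -1 and 1 (2-fold either way) for 49 and wholly within -0.5 and 0.5 for 24. It also lay within -1 and 1 for 83 of the 120 tested with a lower fly mean, where the added 1 TPM shrinks the change. These 83 include 6 of the 13 listed at 0 in all 6 fly-experiment libraries, for which no change was measured. For 51 of the 183 the interval reached past 1 or -1, and for 32 it reached past both. Rank 105 is an example, at 0.27, 26.2 and 0 TPM in fly-mock traps and 15.9, 21.4 and 0.59 TPM in fly-closed traps, with a limma change of 1.37 and an interval of 3.22 to either side. For transcripts that vary this much between the fly libraries, a response to flies is neither shown nor bounded. The model shares a single error per transcript over all 4 groups, so spread among GSH libraries also widens this interval. At rank 33 it ran 1.39 to either side, although the fly-experiment libraries lay only between 14.9 and 20.7 TPM. The uneven libraries there were the GSH-closed ones, at 45.1, 273 and 31.7 TPM. The 51 and the 32 are therefore not counts of transcripts that vary between fly libraries. After GSH, 177 of the 183 passed the same test, all higher, where 25.6% of all tested features passed in either direction and 14.8% as higher; the rule used this contrast, so nothing is read from the count. Rank 105 was among the 6 that did not pass.

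The rule itself could be looked at in libraries that had not served the choice, for lists chosen anew and not for the same 184. The rule was applied to 8 libraries, with 1 replicate number left out of all 4 groups, and the changes were then read in the 4 libraries left out, 1 against 1, which allows no test. Between 190 and 230 transcripts were chosen in this way, of which 135 to 142 belong to the 184. Their median change after GSH in the libraries left out was 2.81, 3.10 and 3.00, against 0.02, 0.09 and 0.003 for all tested features. It had been 3.43, 3.21 and 3.30 in the libraries that chose them, so it was smaller where it had not been used. It was at least 2.5 in 63.9%, 73.7% and 72.4% of them, and in at most 4.04% of all tested features.

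After flies, the median change in the libraries left out was 0.15, 0.19 and 0.18, against at most 0.014 for all tested features. The change stayed between -0.5 and 0.5 in 57.4%, 64.2% and 64.5% of the transcripts chosen, close to the 66.3%, 67.5% and 67.2% of all tested features. It was above the window in 73, 55 and 60 of them and below it in 25, 13 and 12. Features chosen in the same way but with a change after flies above 0.5 had medians of 1.58, 1.68 and 1.69 in the libraries left out, with 11.0% or fewer in the window.

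**Figure D4:**
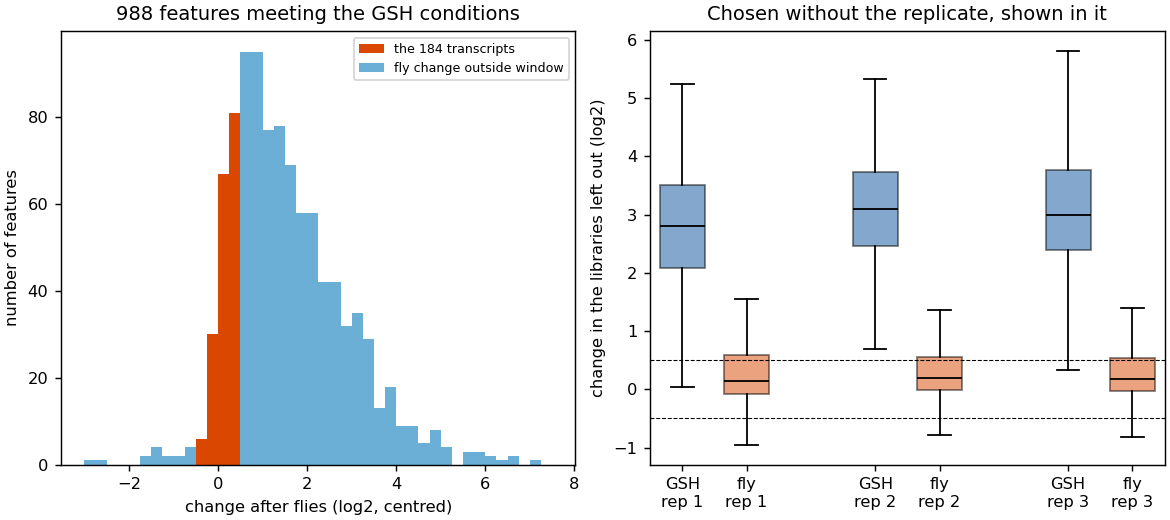
Left, the number of the 988 features that met the GSH conditions by their change after flies (log2, bins of 0.25), with the 184 in orange at the low end of a continuous range. Right, changes in the libraries left out of the choice (box, quartiles with the median; whiskers, up to 1.5 times the box; points beyond not drawn), with medians of 2.81 to 3.10 after GSH and 0.15 to 0.19 after flies.

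Compared with the 788 features that met the GSH conditions and had a change after flies above 0.5, the 184 were lower in GSH-closed traps, with medians of 33.8 TPM and 64.4 TPM, and changed less after GSH, with medians of 3.21 and 3.69. A change after GSH of at least 4 was seen in 31 of the 184 (16.8%) and in 323 of the 788 (41.0%). Mock levels were similar, with medians of 3.44 TPM and 3.73 TPM in GSH-mock traps and 2.64 TPM and 2.63 TPM in fly-mock traps. Both lists were cut from the same values, so these differences were not tested.

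The resting level of many of the 184 differed between the experiments, a contrast that the rule did not use directly. By limma, 44 of the 183 tested (24.0%) were higher in the GSH mock and 5 were lower, where 5.54% and 3.86% of all tested features passed (9.40% in either direction). The rule favours transcripts with low values in the GSH mock, since the change after GSH is taken against it. It also admits any transcript undetected in the fly experiment, whose change after flies falls in the window without being measured. These preferences act on the contrast between the mocks in opposite directions, and their net effect was not tested. In the fly mock the 44 had a median level of 3.65 TPM, so most were detected there. Among the 44 the median log2 difference was 0.95, and 19 differed by 1 or more. Every GSH mock library lay above every fly mock library in 68 of the 183, against 17.8% of all tested features, and the reverse held in 11, against 7.46%.

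Some large differences were in transcripts low or at 0 in the fly mock. Rank 11, whose values stand above, had the largest, a log2 difference of 3.02 ± 0.27 (SE, limma adjusted p = 6.8e-05). Rank 51 was at 4.40, 3.96 and 9.38 TPM in GSH-mock traps and listed at 0 in all 6 fly-experiment libraries (limma adjusted p = 4.32e-05). Rank 23 was at 8.91, 9.16 and 8.89 TPM in GSH-mock traps, against 1.14, 1.37 and 1.10 TPM in fly-mock traps, a log2 difference of 2.04 ± 0.09 (SE, limma adjusted p = 5.39e-07). It then rose to 147, 156 and 165 TPM with GSH, while fly-closed traps were at 1.17, 1.20 and 1.25 TPM. In these transcripts the order was fly mock below GSH mock below GSH-closed, with no overlap between these groups.

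Of the 10 most abundant, 8 were higher in the GSH mock by limma, while ranks 2 (-0.39 ± 0.41 SE, adjusted p = 0.695) and 9 (adjusted p = 0.121) did not pass. Rank 6 stood at 54.8, 71.0 and 54.7 TPM in GSH-mock traps, against 15.3, 16.4 and 14.5 TPM in fly-mock traps (1.74 ± 0.14 SE, limma adjusted p = 3.17e-05), and rank 8 at 50.2, 43.7 and 48.1 TPM and at 13.9, 16.2 and 16.3 TPM (1.41 ± 0.07 SE, limma adjusted p = 1.97e-06). Among the 5 called lower were TRINITY_DN4753_c1_g1 and rank 16, at 9.69, 11.3 and 11.6 TPM in GSH-mock traps, against 21.0, 16.6 and 14.6 TPM in fly-mock traps (-0.76 ± 0.11 SE, limma adjusted p = 0.00176). The difference was largest at rank 152, listed at 0 in the GSH mock, against 4.33, 8.25 and 2.42 TPM in fly-mock traps. The share higher in the GSH mock was about the same among the 788 features with a change after flies above 0.5, 179 (22.7%), so it was not shown to be particular to the 184. Without scaling between libraries 47 were higher and 3 lower, and 9.02% of all tested features were higher.

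Trinity, the assembler whose ID style the features carry, groups related sequences into components. The 184 came from 179 components, and 121 of them (65.8%) were the sole feature of their component, against 71.4% of all tested features. In 5 components a pair of the 184 occurred together. One such pair, ranks 6 and 60, had changes after GSH of 3.40 and 4.53 and after flies of 0.19 and 0.48.

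A further 70 tested features shared a component with one of the 184 without meeting the rule. These sisters are by definition features that failed the rule, so their lower change after GSH is in part fixed by that, and whether sisters divide reads between them was not tested. Some of the 70 reached the level needed for testing only through the GSH-closed libraries. Among them is the sister of rank 36, called higher, at 1.10, 2.16 and 1.64 TPM there and at 0 in all mock libraries. After GSH 28 of the 70 were higher and 9 lower by limma, where 14.8% and 10.8% of all tested features passed. Without scaling between libraries the split was 23 higher and 18 lower, where 10.3% and 25.9% of all tested features passed, as the GSH median over every tested feature then moved from -0.004 to -0.27. The median limma change of the sisters after GSH was 0.35. After flies 5 were higher and 1 lower, near the 4.75% and 0.831% of all tested features, and 80.0% had a change after flies in the window, against 77.1% of all tested features.

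Some components held sisters that went opposite ways, singled out here after their values had been seen. The TPM printed are unscaled, while the limma differences were taken after scaling between libraries. That scaling divided GSH mock libraries by 1.05 to 1.21 and GSH-closed libraries by 0.817 to 0.858. The falls after GSH are therefore larger in the printed TPM than by limma. The sister of rank 8 fell after GSH from 66.8, 53.0 and 64.7 TPM to 33.2, 33.6 and 33.2 TPM, a log2 difference of -0.42 ± 0.08 (SE, limma adjusted p = 0.00176), while rank 8 itself rose to 464, 468 and 476 TPM. That sister also fell after flies, from 90.9, 91.1 and 86.1 TPM to 57.7, 74.8 and 75.6 TPM (limma adjusted p = 0.0152). A sister of rank 6 went from 62.5, 34.7 and 61.2 TPM to 23.5, 22.7 and 23.1 TPM with GSH, a log2 difference of -0.68 ± 0.15 (SE, limma adjusted p = 0.00755), and overlapped between the fly groups. The GSH conditions were met by 4 sisters, which by definition lie outside the fly window. One of them, a sister of rank 80, went from 92.4, 80.8 and 94.1 TPM to 753, 762 and 759.7 TPM with GSH. After flies it went from 73.7, 70.3 and 71.7 TPM to 136, 158 and 159 TPM, with no overlap in either experiment.

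**Figure D5:**
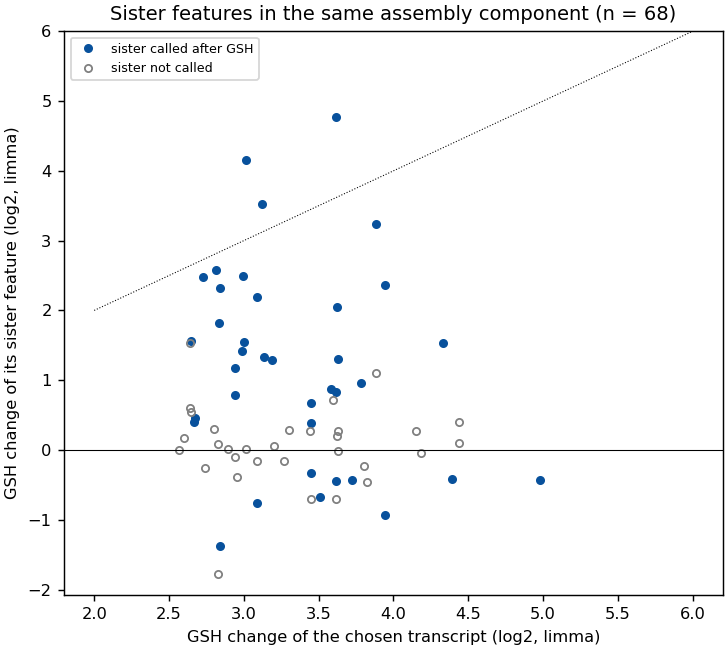
Change after GSH of 68 sister features (log2, limma) against the change of the more abundant of the 184 in the same component; the dotted line marks equal change. Most sisters lie below the line, in part because they are features that failed the rule (the sisters of rank 55, which was not tested, are not drawn), with 28 of all 70 sisters called higher (largest 4.77) and 9 called lower (largest fall -1.38).

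When TPM was summed over each component, 147 of the 179 components still met the rule. Of the 58 components with more than 1 feature, 27 did. The summed change after flies stayed in the window in 171 of the 179, while the summed change after GSH was from 1 to under 2.5 in 22 and under 1 in 2.

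How many transcripts the description covers depends on the bounds. With 5 TPM added in place of 1 there were 100 transcripts, of which 56 are among the 184. With 0.1 TPM added there were 161, of which 121 are among the 184.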

How the data were processed

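RNA of whole traps was measured in 12 libraries. The submitters' processing notes list RSEM, DESeq2 version 1.16.1, Trimmomatic and cutadapt without saying what each did; aligner and depth: not given in the sources used here. The authors deposited a rescaled signal: every value above 0 and below 60 was a multiple of the library sum divided by 100000000 (within 0.0051), so it is a per-million value rounded and multiplied by a library total. Dividing by the sum and multiplying by 1000000 gave the values called TPM; a correction for feature length is not shown by them, so levels of different transcripts are compared only on this scale.

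Features reaching 0.526 TPM in at least 3 libraries were tested (45503). This kept 183 of the 184; 34 of the 184 did not reach it in 3 libraries outside the GSH-closed group, so passing the filter depended on that group for them. Scaling between libraries used trimmed means of log ratios (30% of ratios and 5% of abundances trimmed at each end). The model on log2(TPM + 1) was limma (version 3.58.1, R 4.3.3; 4 groups, 8 residual degrees of freedom, trend and robust options), with Benjamini-Hochberg adjusted p below 0.05 called. The calculation was tested on simulated data with independent normal noise and few changed features, where the share of false calls was somewhat above the nominal level. In these data 25.6% of tested features were called after GSH. The calls may therefore be liberal by an amount that the simulation cannot show. The transcripts, bounds and tests were chosen with earlier results of these data known. The transcripts printed by ID are the most abundant in GSH-closed traps and the other one with the largest GSH change among those above 0 in all 12 libraries; others were taken by rank in level, in change and in fly mock level, and further ones were picked as examples after their values were seen. Gene lists could not be applied without gene names. Alternatives covered each bound of the rule, the added value, centring, scaling, the filter, component sums, a replicate block and leaving out each library.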

Additional observations from a re-analysis of the deposited data

How the results depend on the processing

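The number of transcripts was 184. It was 100 with 5 TPM added, 97 with a fly window of 0.25, 380 with a window of 1, 305 with a minimum GSH change of 2 and 111 with a minimum of 3. In the other 8 settings it stayed within 1.5 times of 184. Leaving out each library gave 168 to 210 transcripts, of which 154 to 176 are among the 184. Over the libraries left out, 149 to 177 of the 184 were called after GSH, 5 (without fly-closed replicate 1) to 12 after flies and 44 to 50 between the mocks, and 32 to 38 sisters were called after GSH and 4 to 6 after flies. When a GSH-closed library is left out, 166 of the 184 pass the filter on low values. With no filter, 5 of the 184 and 3 sisters were called after flies, while the share of all tested features called fell from 5.58% to 0.600%, as many more features were tested. The median change after flies in libraries left out of the choice was 0.17 (mean of 3) and 0.14 with no median subtracted. All replicate numbers were shared between groups, but deviations of same-numbered libraries were uncorrelated (r from -0.006 to 0.010 over 6 pairs), so the numbers pair nothing known. With the replicate block, 177 were called after GSH, 7 after flies and 48 between the mocks, and 35 and 5 sisters after GSH and after flies. In the settings run for the transcripts printed by ID, the limma change after GSH was 3.00 to 3.47 for TRINITY_DN3468_c0_g1 and 5.08 to 5.82 for TRINITY_DN4753_c1_g1. After flies the change ran from -0.03 to 0.08 and from -0.03 to 0.17, so its sign was not fixed in either. Depth per transcript is unknown, which limits values under about 1 TPM most.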
